A study of Homo sapiens with 12 samples.

Results

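The response of KELLY cells to Erastin was read from 6 of the 12 RNA-seq samples of the study, chosen by their labels alone as every sample of this cell line. KELLY is an established human neuroblastoma line with amplification of MYCN, a transcription factor gene of the MYC family. Cells were plated in 6-well plates in RPMI medium with fetal bovine serum and antibiotics and were exposed for 24 h to 1 µM Erastin (3 samples) or to the solvent DMSO (3 samples). The other 6 samples hold SK-N-AS, a neuroblastoma line without MYCN amplification, given 2 µM Erastin or DMSO, and were used only for the comparison of the lines at the end. KELLY is 1 line, and nothing in the labels says whether the 3 samples of a group came from separate cultures. The p-values therefore measure the spread between these samples, which may be technical.

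Erastin blocks system Xc, the antiporter that takes up cystine in exchange for glutamate and is made of the transport subunit SLC7A11 (xCT) and the heavy chain SLC3A2. Cystine is reduced in the cell to cysteine, which limits the synthesis of glutathione, the cofactor with which GPX4 removes lipid peroxides, and loss of this defence leads to ferroptosis, an iron-dependent form of cell death. Shortage of an amino acid is sensed by the kinase GCN2, whose phosphorylation of eIF2α favours translation of the transcription factor ATF4, and ATF4 with its partners switches on genes for amino acid synthesis, amino acid import and tRNA charging, a programme called the integrated stress response.

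The 6 libraries held 24169796 to 28251514 read counts. They differed in a trend with the GC content of the genes, and its direction differed between libraries of the same group. Over 12009 genes, GC content correlated with a library's log2 deviation from the mean over the 6 libraries with a Spearman coefficient of -0.833, 0.71 and -0.481 in DMSO replicates 1 to 3, and 0.867, -0.671 and 0.258 in Erastin replicates 1 to 3. For genes of 61% GC the fitted curve lay at -0.632, 0.213 and -0.12 on the log2 scale in DMSO replicates 1 to 3. It lay at 0.634, -0.175 and 0.0803 in Erastin replicates 1 to 3, so the replicate 1 libraries stood apart in opposite directions. The curves do not cancel within a group, so the correction also shifts fold changes by GC content. A treatment effect that follows GC content would be removed with the trend. The main results are therefore given as counted and after this curve was subtracted (GC corrected), and the counts of calls also without both replicate 1 libraries, a choice made after seeing the data. The mitochondrial genome gave 5.51 to 8.05% of counts. All 11 adrenergic neuroblastoma markers checked, among them TH and MYCN, were detected, with a summed level of 9548 to 13010 CPM (counts scaled to a common library total) in DMSO and 10560 to 17840 CPM in Erastin. Of 19 blood cell markers, 11 were at 0 in every library, and the whole list summed to 0.245 to 15.6 CPM in DMSO and 0.583 to 5.79 CPM in Erastin. The haemoglobin genes HBA2 and HBB made up most of the highest sums, with 178 and 208 counts in DMSO replicate 1, 37 and 91 in Erastin replicate 1 and at most 3 in each of the other libraries, so they lay in the libraries that stood apart in the GC trend. Their part in the results was not tested. Schwann cell markers (10 genes) summed to 31.2 to 37.8 and 31.5 to 40.3 CPM, fibroblast markers (11 genes) to 127 to 189 and 143 to 181 CPM, and endothelial and epithelial markers (11 genes) to 8.24 to 8.63 and 6.76 to 9.19 CPM, in DMSO and Erastin respectively.

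**Figure D1:**
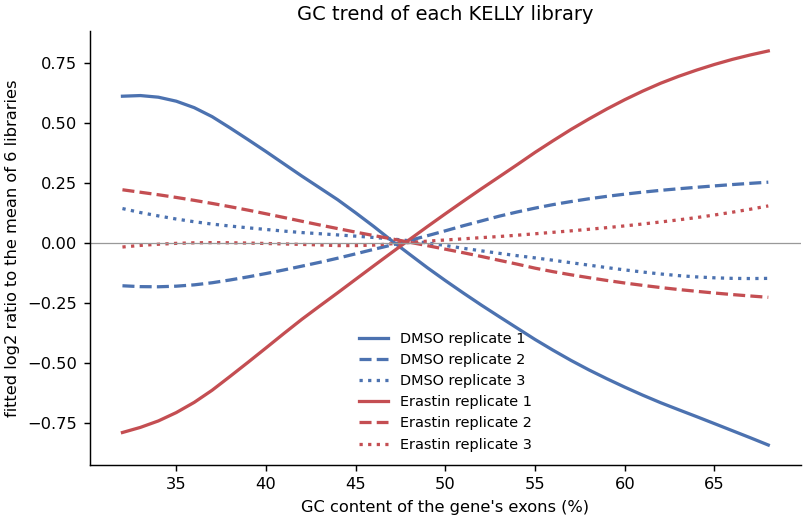
Fitted log2 deviation of each KELLY library from the average of all 6 (vertical axis) against the GC content of the genes' exons in percent (horizontal axis), with 1 line per library. DMSO replicate 1 falls and Erastin replicate 1 climbs with GC content, and they part by more than 1 log2 unit at 61% GC, while the other 4 libraries stay closer to 0.

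Few genes passed the adjusted threshold in the main fit and nearly all were higher in Erastin, but some other fits called more, with more falls. With the GC correction, 27 of 14260 genes tested rose and 1 fell at an adjusted p under 0.05 in edgeR's quasi-likelihood test (0.189% and 0.00701% of genes tested). In what follows, rose and fell without further words mean this call, and other counts name their threshold. The genes that rose were SLC7A11, SLC3A2, CHAC1, STC2, INHBE, ADM2, DDIT4, ASNS, ULBP1, SESN2, ALDH1L2, ASS1, PHGDH, SLC6A9, VLDLR, SLC1A4, GPT2, PCK2, ATF3, PSAT1, SHMT2, SLC7A5, CARS, PSPH, CDKN1A, SARS and MTHFD2. HMGCS1 was the gene that fell. As counted, 1 gene, STC2, passed this threshold (0.00615% of 16258 genes tested, with 430 genes at an unadjusted p of at most 0.05). The biological coefficient of variation fitted by edgeR was 0.246 as counted and 0.129 with the correction. These values cover 16258 and 14260 genes, so the part of the correction alone was not measured.

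At the threshold used in the study, an unadjusted p no higher than 0.05 with at least a 1.5-fold change, 209 genes were higher and 121 lower as counted (1.29% and 0.744% of genes tested), and 136 were higher and 112 lower with the GC correction (0.954% and 0.785%). In both fits 103 genes were higher and 63 lower, and 0 genes passed in opposite directions. At an unadjusted p of at most 0.05 alone, 464 genes were higher and 615 lower with the correction (3.25% and 4.31%). Every Erastin library lay above every DMSO library in 4.35% of genes as counted and in 6.72% after correction, and below every DMSO library in 4.21% and 8.74%. These shares are the background against which the gene lists are read. The median log2 fold change of all genes was 0.0052 as counted and -0.017 after correction, and fewer cells of a type cannot be told apart from less RNA per cell in such bulk samples.

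The call of 28 genes held its direction in all alternative fits that were run with the correction. When 1 library was left out at a time, 13 of the 28 genes were called in all 6 of these fits, and HMGCS1 was called in 0 of them (adjusted p from 0.0664 to 0.319). The 13 were SLC7A11, CHAC1, STC2, DDIT4, ASNS, ULBP1, SESN2, ALDH1L2, ASS1, VLDLR, SLC1A4, GPT2 and PSAT1. SLC3A2, MTHFD2, CARS and CDKN1A were called in 1 of the 6 fits, SARS in 2, and SHMT2 and ATF3 in 3. The fewest calls were left without Erastin replicate 3 (14 genes) and without DMSO replicate 3 (16 genes), and with the replicate number as a block 5 of the 28 were called. Without both replicate 1 libraries all 28 genes were called with the correction, among 117 genes in all, of which 91 were higher. As counted, leaving out both gave 23 calls, of which 21 were among the 28 (91.3% of the 23 and 75% of the 28).

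**Figure D2:**
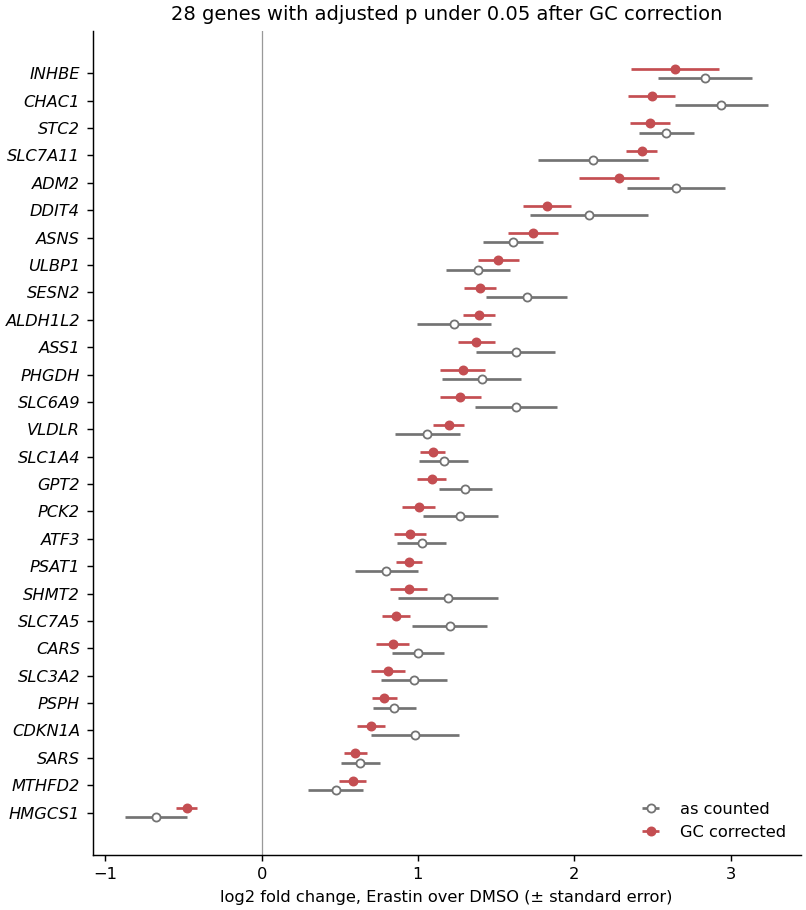
Log2 fold change of Erastin over DMSO (horizontal axis, bars are ± 1 standard error) for the 28 genes with an adjusted p under 0.05 after GC correction, as counted (open circles) and GC corrected (filled circles). Every gene lies on the same side of 0 in both fits, from 2.64 for INHBE to -0.48 for HMGCS1, and the error bars are shorter after the correction.

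The transporter that Erastin blocks was among the genes that rose. SLC7A11 (chr4:138164097-138242349, minus strand, GRCh38), the cystine-carrying subunit, was counted at 32.3, 17.1 and 21.9 CPM in the DMSO libraries and at 61.2, 138 and 111 CPM in the Erastin libraries, and at 21.6, 19.3 and 20.5 and 98.8, 121 and 111 CPM after GC correction. The groups did not overlap on either scale, and the lowest Erastin value as counted came from replicate 1. Its log2 fold change was 2.12 ± 0.35 (standard error) as counted, which did not pass the adjusted threshold (adjusted p = 0.41), and 2.43 ± 0.10 with the correction (adjusted p = 4.54e-05), a 5.39-fold rise. SLC3A2 (chr11:62856004-62888880, plus strand), the heavy chain that brings SLC7A11 and several other transporters to the membrane, stood at 137, 133 and 115 CPM in DMSO and 249.8, 194 and 230.5 CPM in Erastin after correction, without overlap. Its log2 fold change was 0.81 ± 0.11 corrected with an adjusted p of 0.03, and 0.97 ± 0.21 as counted with an adjusted p of 0.77. SLC3A2 was called in 1 of the 6 fits with 1 library left out, and SLC7A11 in all 6. Of 10 tested genes for cystine import and transsulfuration, SLC7A11 and SLC3A2 were the 2 that rose. At an unadjusted p of 0.05, 3 passed upward and 0 downward, with a list median of 0.37. The third was CTH, the enzyme that releases cysteine from cystathionine, at 0.57 ± 0.15 (adjusted p = 0.451).

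Among 27 tested genes of glutathione synthesis and breakdown, 1 rose, 2 passed an unadjusted p of 0.05 upward and 1 downward, and the median was -0.0094. The gene that rose was CHAC1 (chr15:40952962-40956512, plus strand), an enzyme that cleaves glutathione and a known ATF4 target. CHAC1 was counted at 3.63, 4.67 and 4.24 CPM in DMSO and 45.3, 21.9 and 29.3 CPM in Erastin, and the GC correction narrowed the Erastin libraries to 28.1, 24.9 and 27.4 CPM. All Erastin libraries lay above all DMSO libraries, with a log2 fold change of 2.94 ± 0.30 as counted (adjusted p = 0.0902) and 2.50 ± 0.15 corrected (adjusted p = 0.000314). GCLM, the modifier subunit of the enzyme that starts glutathione synthesis, had 64.1, 56.7 and 62.1 CPM in DMSO and 70.5, 61.8 and 64.3 CPM in Erastin, which overlapped, and a log2 fold change of -0.17 ± 0.23 as counted and 0.10 ± 0.09 corrected. GPX4 itself changed sign with the correction, from 0.20 ± 0.17 to -0.25 ± 0.20, and its groups overlapped at 116, 78.1 and 94.9 and 57.9, 100.3 and 85 CPM. The GSTM2 and MGST2 transferases were the other members at an unadjusted p of at most 0.05, with log2 fold changes of 0.33 ± 0.13 and -0.30 ± 0.11.

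**Figure D3:**
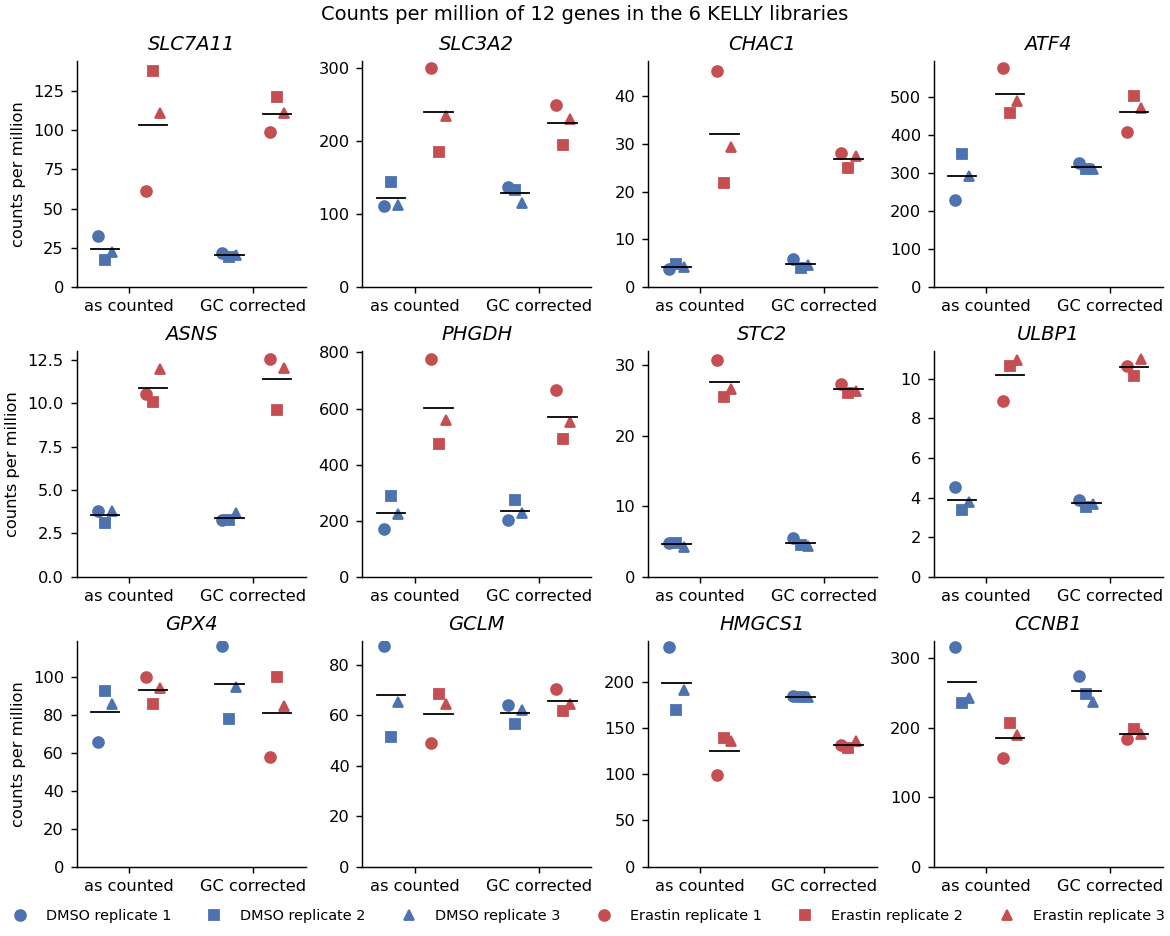
CPM (vertical axes, from 0) of 12 genes in each of the 6 KELLY libraries, as counted on the left of each panel and GC corrected on the right, with DMSO and Erastin in 2 colours, 1 symbol per replicate number and a line at each group mean. SLC7A11, CHAC1, ASNS, STC2 and ULBP1 separate widely in both, while the GPX4 and GCLM groups overlap after correction, and the 3 DMSO values of HMGCS1 come together at 184 CPM after correction.

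Of 20 tested transcription factors of the ATF4 network, 1 rose. ATF4 was at 326, 309 and 310.0 CPM in DMSO and 408, 503 and 471 CPM in Erastin after correction, with no overlap and a log2 fold change of 0.55 ± 0.09 corrected with an adjusted p of 0.0814, and 0.81 ± 0.19 as counted with an adjusted p of 0.77. ATF3, a stress-induced repressor and activator of the same family, was the factor that rose, from 11.8, 11.8 and 10.8 CPM to 20.6, 22.9 and 22.8 CPM (0.95 ± 0.10 corrected with an adjusted p of 0.00784, and 1.02 ± 0.16 as counted with an adjusted p of 0.342). CEBPB and JDP2, which pair with ATF4 family members, had log2 fold changes of 0.77 ± 0.13 and 0.91 ± 0.16 and missed the adjusted threshold (adjusted p = 0.0768 and 0.0878), although their groups did not overlap. DDIT3 (CHOP), the factor tied to cell death under prolonged stress, was low, at 1.09, 2.9 and 3.46 CPM in DMSO and 4.37, 4.08 and 3.95 CPM in Erastin, and its log2 fold change was 0.72 ± 0.35 (adjusted p = 0.654). Of its exon bases 39.6% lie in exons of other genes in GENCODE 44, so its reads may be shared. TRIB3, a pseudokinase that restrains ATF4, gave 0.60 ± 0.18 as counted and 0.27 ± 0.14 corrected, with overlap after correction. Over the list, 6 factors passed an unadjusted p of 0.05 upward and 1 downward, and the median was 0.12 with the correction and 0.31 without.

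Most effectors of the integrated stress response were higher in Erastin. Of 36 tested members, 34 had a positive log2 fold change, 27 passed an unadjusted p of 0.05 upward and 0 downward, 20 were at least 1.5-fold higher at that p, and 13 rose, with a median of 0.67 (0.84 as counted). The list was drawn up with earlier results of these data known, so its direction is no independent evidence. The 3 Erastin libraries had list medians of 0.735, 0.606 and 0.597 log2 CPM above the DMSO mean after correction and of 1.04, 0.607 and 0.711 as counted, and the DMSO libraries lay between 0.00081 and 0.023 after correction. INHBE, a subunit of the activin family of secreted factors, was close to silent in DMSO at 0.632, 0.655 and 0.386 CPM and was counted at 4.63, 3.6 and 3.75 CPM in Erastin (2.64 ± 0.28 corrected with an adjusted p of 0.00591, and 2.84 ± 0.30 as counted with an adjusted p of 0.0902). BBC3 (PUMA), a BH3-only death gene, was counted at 1.07, 7.09 and 3.23 CPM and 24.4, 8.02 and 10.1 CPM. Its log2 fold change was 1.90 ± 0.67 as counted and 1.5 ± 0.36 corrected, and missed the adjusted threshold (adjusted p = 0.77 and 0.337). VEGFA, the angiogenic growth factor, was at 89.7, 71.2 and 79.7 CPM in DMSO and 120.5, 122 and 119 CPM in Erastin after correction (0.59 ± 0.09, adjusted p = 0.0644). CDKN1A (p21), an inhibitor of cyclin-dependent kinases, rose from 32, 34.5 and 33.6 CPM to 57.4, 49.1 and 56.3 CPM (0.70 ± 0.09 corrected with an adjusted p of 0.0199, and 0.98 ± 0.28 as counted with an adjusted p of 0.77). VLDLR, a lipoprotein receptor, rose by 1.20 ± 0.10 on the log2 scale with the correction, and had 1.06 ± 0.21 as counted (adjusted p = 0.652). Its antisense transcript VLDLR-AS1 had 1.93 ± 0.36 corrected (adjusted p = 0.128). Exons shared between the pair are at most 4.18% of the exon bases of VLDLR-AS1 and 8.24% of those of VLDLR, and since the strand setting of the counting is not given in the sources used here, reads over these bases could belong to either gene. Among 18 tested genes for the eIF2α kinases, phosphatase subunits and eIF2 itself, 2 passed an unadjusted p of 0.05 upward (EIF2S2 at 0.36 ± 0.08 and EIF2S3 at 0.32 ± 0.09) and 0 rose.

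The promoters of the genes that rose were searched for the C/EBP-ATF response element, the composite site that ATF4 is known to bind with C/EBP partners, because these genes moved together. Its letters TGATGNAA were looked for on both strands in the 300 bases from 250 before to 50 after the start of each gene, as listed by RefSeq on GRCh38.p14. Of the 27 genes, 21 had a promoter in the table and 5 of these held the letters (23.8%), against 1003 of 27305 promoters in all (3.67%) and 174 of the 11004 tested genes with a promoter (1.58%). The letters TGACNNNGC, the core of the antioxidant response element of NRF2, stood in 5 of the 21 (23.8%), against 13.6% of all promoters and 15.1% of tested genes, and the E-box CACGTG in 1 (4.76%), against 7.43% and 10.3%. The 3 promoters in which TGATGNAA lies wholly before the RefSeq start are shown with the match in capitals. They place the element in an enzyme of glutathione breakdown, an enzyme of asparagine synthesis and a transcription factor of the response. Distances count from the RefSeq start, which can differ from the start of the GENCODE gene spans given elsewhere in the text. By those spans the CHAC1 and ASNS matches lie inside the gene, and the ATF3 match lies before it. CHAC1 is read on the plus strand at chr15:40953238-40953293, where the match is on the opposite strand and begins 209 bases before the start. ASNS is read on the minus strand at chr7:97872445-97872500, with the match on the gene's strand 68 bases before the start. ATF3 is read on the plus strand at chr1:212565192-212565247, with the match on the gene's strand 191 bases before the start. In CARS the match spans the RefSeq start and in SLC3A2 the match lies after that start. A match describes the letters and does not show binding.
CHAC1: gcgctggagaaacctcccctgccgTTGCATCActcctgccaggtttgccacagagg
ASNS: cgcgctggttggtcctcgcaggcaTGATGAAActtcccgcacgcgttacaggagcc
ATF3: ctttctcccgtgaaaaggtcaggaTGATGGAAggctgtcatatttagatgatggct

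The pathway that makes serine from a glycolytic intermediate rose in all 3 of its steps. PHGDH, the first enzyme, was at 201, 272 and 228 CPM in DMSO and 667, 492 and 551 CPM in Erastin after correction, with no overlap and a log2 fold change of 1.29 ± 0.14 corrected with an adjusted p of 0.00784, and 1.41 ± 0.25 as counted with an adjusted p of 0.54. PSAT1, the second, went from 111, 96.6 and 96 to 188, 199 and 197 CPM (0.94 ± 0.08 corrected with an adjusted p of 0.00198, and 0.80 ± 0.20 as counted with an adjusted p of 0.77). PSPH, the last, went from 47.4, 44.5 and 43.3 to 73.6, 80.8 and 78.4 CPM (0.78 ± 0.08 corrected with an adjusted p of 0.00521, and 0.85 ± 0.14 as counted with an adjusted p of 0.369). With SHMT2, the mitochondrial enzyme that turns serine into glycine (0.94 ± 0.12 corrected with an adjusted p of 0.0187, and 1.19 ± 0.32 as counted with an adjusted p of 0.77), these were the 4 of 13 tested serine and glycine genes that rose, and the median of that list was 0.15.

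In folate metabolism 3 mitochondrial enzymes rose. SHMT2, ALDH1L2, which oxidises formyl-tetrahydrofolate in mitochondria, and MTHFD2, the mitochondrial methylene-tetrahydrofolate dehydrogenase, were the 3 of 22 tested folate genes that rose, and 5 passed an unadjusted p of 0.05 upward and 0 downward. ALDH1L2 was at 34.9, 31 and 36.3 CPM in DMSO and 81.3, 97.9 and 88.9 CPM in Erastin (1.39 ± 0.10 corrected with an adjusted p of 0.000835, and 1.23 ± 0.24 as counted with an adjusted p of 0.636). MTHFD2 was at 316, 319 and 312 and 429.8, 515 and 476 CPM (0.58 ± 0.09 corrected with an adjusted p of 0.0497, and 0.47 ± 0.18 as counted with an adjusted p of 0.77). With 1 library left out, ALDH1L2 was called in all 6 fits, SHMT2 in 3 and MTHFD2 in 1. The cytosolic counterparts SHMT1 and MTHFD1, named here after their values were seen, had log2 fold changes of -0.02 ± 0.11 and 0.02 ± 0.12 with overlapping groups. The difference between the compartments was not tested.

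ASNS (chr7:97851677-97872542, minus strand), asparagine synthetase, was counted at 3.79, 3.11 and 3.79 CPM in DMSO and 10.6, 10.1 and 12 CPM in Erastin. It rose 3.34-fold after correction (1.74 ± 0.16 corrected with an adjusted p of 0.00265, and 1.61 ± 0.19 as counted with an adjusted p of 0.114), although 49.3% of its exon bases in GENCODE 44 are shared with another gene on the same strand. ASS1, argininosuccinate synthetase of arginine synthesis, was at 98.7, 116 and 111 CPM and 245, 327 and 273 CPM after correction (1.37 ± 0.12 corrected with an adjusted p of 0.00198, and 1.62 ± 0.25 as counted with an adjusted p of 0.342). GPT2, the mitochondrial alanine transaminase, also rose (1.09 ± 0.09 corrected with an adjusted p of 0.00198, and 1.30 ± 0.17 as counted with an adjusted p of 0.192). These were the 3 of 22 tested genes for asparagine, alanine, proline and glutamate metabolism that rose, beside a list median of 0.03. PCK2, the mitochondrial form of phosphoenolpyruvate carboxykinase, rose from 36.4, 35 and 28.2 CPM to 66.5, 67.2 and 65.7 CPM (1.00 ± 0.10 corrected with an adjusted p of 0.00591, and 1.27 ± 0.24 as counted with an adjusted p of 0.634).

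Amino acid transporters outside system Xc split, with 7 of 27 at an unadjusted p of 0.05 or less upward and 3 downward, and 3 that rose. SLC7A5 (LAT1), which imports large neutral amino acids as a partner of SLC3A2, was counted at 249, 429.9 and 376 CPM in DMSO and 996, 670.4 and 761 CPM in Erastin. Its log2 fold change was 1.20 ± 0.24 as counted (adjusted p = 0.656) and 0.86 ± 0.09 corrected (adjusted p = 0.00591). SLC1A4, a carrier of serine, alanine and cysteine, went from 21.3, 22 and 21.3 CPM to 45.8, 46.2 and 45.9 CPM (1.09 ± 0.08 corrected with an adjusted p of 0.000835, and 1.16 ± 0.16 as counted with an adjusted p of 0.192). SLC6A9, the glycine transporter GlyT1, rose as well (1.27 ± 0.13 corrected with an adjusted p of 0.00591, and 1.63 ± 0.26 as counted with an adjusted p of 0.369).

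Cytosolic aminoacyl-tRNA synthetases, which load amino acids onto tRNAs, included 2 genes that rose, and their mitochondrial counterparts had 0. Of 22 tested cytosolic genes, 10 passed an unadjusted p of 0.05 upward and 0 downward, and the median was 0.20. In every Erastin library 12 lay higher after correction and 8 as counted. Of 17 mitochondrial genes, 0 passed in either direction, and the median was 0.015. The cytosolic genes that rose were CARS (current name CARS1), for cysteine, at 0.84 ± 0.11 (adjusted p = 0.0191), and SARS (SARS1), for serine, at 0.60 ± 0.07 (adjusted p = 0.0179). CARS stood at 34.9, 33.5 and 35.4 CPM in DMSO and 52.6, 65.9 and 67.1 CPM in Erastin. As counted, CARS had 1.00 ± 0.17 and SARS 0.63 ± 0.12 (adjusted p = 0.41 and 0.656). CARS was called in 1 and SARS in 2 of the 6 fits with 1 library left out. GARS (GARS1), for glycine, and YARS (YARS1), for tyrosine, had log2 fold changes of 0.90 ± 0.15 and 0.55 ± 0.08 and missed the adjusted threshold (adjusted p = 0.0768 and 0.0516). Whether the cytosolic and mitochondrial lists differed was not tested.

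The kinase complex mTORC1 promotes growth when amino acids are plentiful. Among 16 tested genes that restrain mTORC1 or its output, 2 rose and 4 were at least 1.5-fold higher at an unadjusted p of at most 0.05. DDIT4 (REDD1), which acts through the TSC complex, was counted at 8.13, 22 and 15.4 CPM in DMSO and 86, 48.5 and 59.9 CPM in Erastin, and at 11.9, 19.2 and 16.5 and 58.9, 53.8 and 57.3 CPM after correction (1.82 ± 0.15 corrected with an adjusted p of 0.00198, and 2.09 ± 0.38 as counted with an adjusted p of 0.54). SESN2, a leucine sensor, went from 23.4, 24.7 and 27.4 CPM to 59.5, 69.7 and 70.2 CPM (1.40 ± 0.10 corrected with an adjusted p of 0.000835, and 1.70 ± 0.26 as counted with an adjusted p of 0.342). EIF4EBP1, a translation repressor held off by mTORC1, had 0.88 ± 0.25 (adjusted p = 0.498), and the inhibitor DEPTOR 0.79 ± 0.27 with overlap of the groups (adjusted p = 0.604).

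Of 14 tested genes for secreted stress hormones and growth factors, 3 rose, and 5 passed an unadjusted p of 0.05 upward and 2 downward. STC2 (chr5:173314723-173328447, minus strand), a secreted glycoprotein hormone, was counted at 4.82, 4.71 and 4.24 CPM in DMSO and 30.7, 25.4 and 26.7 CPM in Erastin. It was the gene called on both scales, with 2.59 ± 0.18 as counted (adjusted p = 0.00985) and 2.48 ± 0.13 corrected (adjusted p = 0.000133). ADM2 (intermedin), a peptide of the calcitonin family, was counted at 0.632, 1.06 and 1.37 CPM and 7.34, 5.44 and 6.67 CPM (2.29 ± 0.25 corrected with an adjusted p of 0.00784, and 2.65 ± 0.31 as counted with an adjusted p of 0.114). INHBA, the activin βA subunit, had 0.474, 0.696 and 0.526 CPM in DMSO and 0.167, 0.117 and 0.146 CPM in Erastin, a handful of reads per library (-1.80 ± 0.53, adjusted p = 0.505).

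ULBP1 (chr6:149963943-149973715, plus strand) encodes a surface ligand of NKG2D, the activating receptor of natural killer cells, and was the NKG2D ligand that rose. It was counted at 4.54, 3.36 and 3.79 CPM in DMSO and 8.88, 10.7 and 11 CPM in Erastin, without overlap, with log2 fold changes of 1.38 ± 0.20 as counted (adjusted p = 0.319) and 1.51 ± 0.13 corrected (adjusted p = 0.00202). Of the 8 NKG2D ligands on the list, 3 passed the filter on low counts. ULBP2 was at 2.84, 2.62 and 2.35 CPM and 2.88, 2.85 and 2.95 CPM (0.17 ± 0.19), and ULBP3 at 0.671, 1.23 and 0.631 CPM and 1.46, 0.782 and 1.2 CPM (0.50 ± 0.41), and neither passed the test. Of 14 other tested ligands of natural killer cells, 0 rose and 1, NECTIN2, passed an unadjusted p of 0.05 downward (-0.33 ± 0.12, but 0.06 ± 0.34 as counted). Of 16 tested genes of MHC class I presentation, 0 passed upward and NLRC5, their transcriptional activator, passed downward at 2.37, 3.15 and 2.56 CPM and 2.21, 1.92 and 1.28 CPM (-0.82 ± 0.25, adjusted p = 0.54). Of 14 interferon response genes, 0 passed upward and 2 downward.

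Lists named for oxidative and iron stress held few members past a threshold. Of 32 tested NRF2 targets, 1 rose, SLC7A11, which is also an ATF4 target, 2 passed an unadjusted p of 0.05 upward and 1 downward, and the median was 0.046. HMOX1, which degrades haem and releases iron, was the other member upward, at 9.4, 13.5 and 11.9 CPM in DMSO and 24.8, 19.3 and 22.5 CPM in Erastin (0.93 ± 0.15, adjusted p = 0.0768). NQO1 and TXNRD1, classical NRF2 target enzymes, had log2 fold changes of 0.14 ± 0.12 and 0.06 ± 0.07. HMOX1 was also the 1 of 22 tested iron genes at an unadjusted p of at most 0.05. TFRC, the transferrin receptor, was at 579, 486 and 504 CPM and 515, 569 and 566 CPM, overlapped, and had -0.08 ± 0.21 as counted and 0.07 ± 0.09 corrected. Of 25 tested lipid enzymes and defences of ferroptosis, 1 passed an unadjusted p of 0.05 upward and 0 were called. The 2 that passed downward were HSPB1 (-0.40 ± 0.12) and ACSL3 (-0.20 ± 0.08). As counted, HSPB1 had -0.05 ± 0.30 and ACSL3 -0.45 ± 0.24, both with overlap of the groups.

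Of 32 tested genes for endoplasmic reticulum chaperones and the unfolded protein response, 3 passed an unadjusted p of 0.05 upward and 0 rose. These were XBP1 (0.50 ± 0.07, adjusted p = 0.0516), HERPUD1 (0.51 ± 0.08, adjusted p = 0.0609) and the sensor ERN1 (0.32 ± 0.12, adjusted p = 0.625). HSPA5 (BiP), the main chaperone of the compartment, was at 602, 636 and 618 CPM in DMSO and 659, 594 and 630.2 CPM in Erastin, overlapped, and had 0.02 ± 0.08. Of 20 cytosolic heat shock genes, 0 passed upward and 5 downward, with a median of -0.10, among them HSP90AA1 at -0.30 ± 0.10 and HSPA8 at -0.26 ± 0.10.

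**Figure D4:**
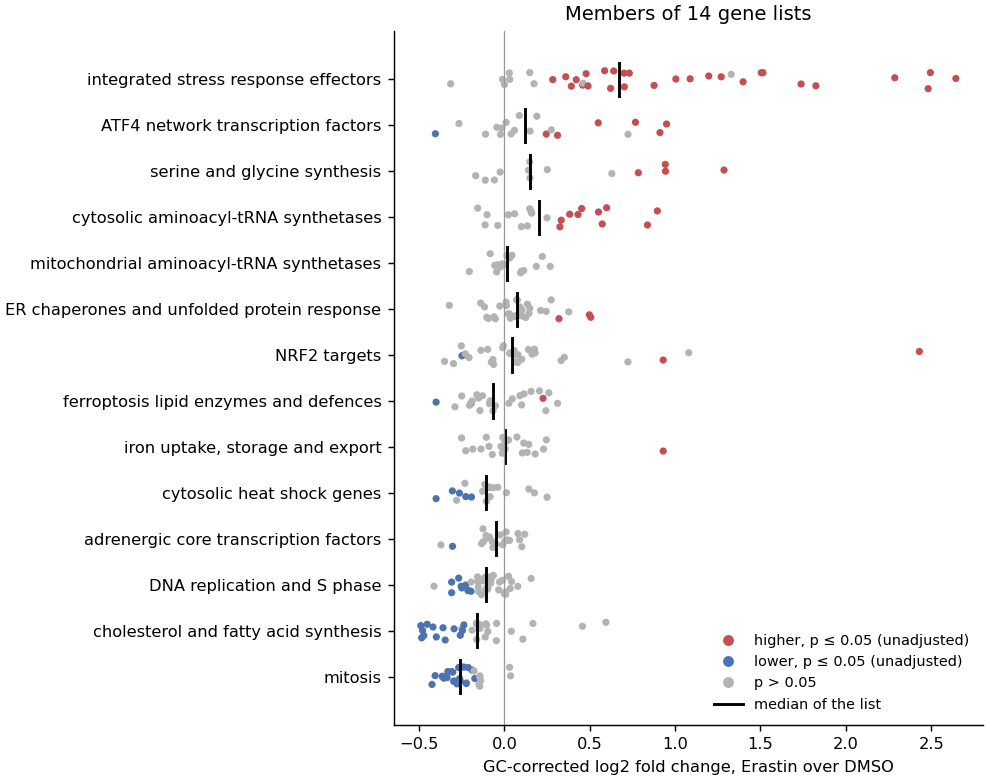
GC-corrected log2 fold change of Erastin over DMSO (horizontal axis) for the tested members of 14 gene lists (vertical axis), with 1 point per gene, colour where the unadjusted p did not exceed 0.05, and a line at each list median. The stress response effectors spread to the right of 0 with a median of 0.67, and the mitosis list lies to the left of 0 with a median of -0.26.

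The 1 gene that fell belongs to cholesterol synthesis. HMGCS1 (chr5:43287470-43313512, minus strand) encodes the cytosolic HMG-CoA synthase and was counted at 237, 169 and 191 CPM in DMSO and 98.5, 139 and 136 CPM in Erastin. After correction the values were 184, 184 and 184 CPM and 131, 128 and 136 CPM, without overlap, and the log2 fold change was -0.68 ± 0.20 as counted (adjusted p = 0.77) and -0.48 ± 0.07 corrected (adjusted p = 0.0341). Of its exon bases 37.7% are shared with a gene on the other strand. Over the list of cholesterol and fatty acid synthesis, 0 of 32 tested genes passed an unadjusted p of 0.05 upward and 14 passed downward, 17 lay lower in every Erastin library after correction and 9 as counted, and the median was -0.16 (-0.045 as counted). Leaving out both replicate 1 libraries raised the 14 to 21, while 10 passed with the replicate block and 11 each without DMSO replicate 3 and without Erastin replicate 3. INSIG1, the sterol sensor of the endoplasmic reticulum, was at 93.3, 96.6 and 89.1 CPM and 65.4, 68.8 and 69.7 CPM (-0.45 ± 0.07, adjusted p = 0.0762). FDFT1 (squalene synthase) was at 169.5, 138 and 145 CPM and 97.3, 115 and 114 CPM (-0.47 ± 0.10, adjusted p = 0.258). As counted, the list medians of the libraries followed their GC trends, from -0.305 in DMSO replicate 1 to 0.215 in DMSO replicate 2, and after correction the Erastin libraries lay at -0.177, -0.216 and -0.179 with the DMSO libraries between -0.02 and 0.0091.

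Most genes of mitosis were lower by a small amount. Of 32 tested, 0 passed an unadjusted p of 0.05 upward and 22 passed downward, 27 lay lower in every Erastin library after correction and 13 as counted, and the median was -0.26 (-0.29 as counted). No single member was called. CCNB1 (cyclin B1), which drives entry into mitosis, was at 275, 248 and 237 CPM in DMSO and 184, 198 and 191 CPM in Erastin (-0.41 ± 0.08, adjusted p = 0.191). The spindle checkpoint kinase BUB1 gave -0.35 ± 0.08 and the motor protein KIF23 -0.31 ± 0.07, both without overlap (adjusted p = 0.24 and 0.258). The proliferation marker MKI67 was at 492, 529 and 587 CPM and 436, 478 and 438 CPM (-0.25 ± 0.09, adjusted p = 0.615). Of 42 tested genes of DNA replication and S phase, 0 passed upward and 8 downward, and the median was -0.11. In every Erastin library 17 lay lower after correction and 8 as counted. The 8 that passed downward became 3 without Erastin replicate 3, 4 without Erastin replicate 1, 5 without DMSO replicate 3, 3 with the replicate block and 11 without both replicate 1 libraries. E2F1, a regulator of S phase entry, gave 0.13 ± 0.27 as counted and -0.25 ± 0.08 corrected. With the replicate number as a block, 13 mitosis genes passed downward.

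**Figure D5:**
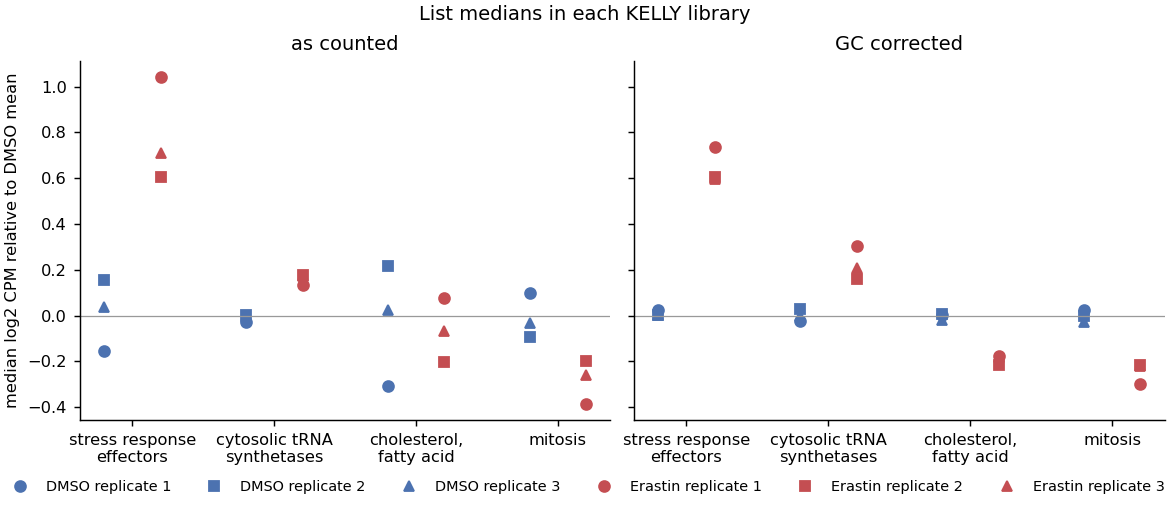
Median log2 CPM of 4 gene lists in each KELLY library relative to the mean of the DMSO libraries (vertical axis), as counted on the left and GC corrected on the right, with 1 symbol per replicate number. After correction the 3 Erastin libraries lie between 0.597 and 0.735 for stress response effectors and between -0.298 and -0.217 for mitosis, apart from the DMSO libraries near 0, while as counted the cholesterol and fatty acid medians of the 2 groups overlap.

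None of the 12 named genes with the largest differences downward by fold was called. INHBA, which lay under the level required here, differed by more (-1.80 ± 0.53). Of the 28 genes with a mean log2 CPM of at least 1 that were lower on both scales without overlap at the threshold of the study, the largest differences were in the pseudogenes TCEA1P2 (-1.40 ± 0.49), GUSBP9 (-1.39 ± 0.33), NSFP1 (-1.38 ± 0.35) and TUBAP2 (-1.07 ± 0.29), whose reads may belong to their parent genes. SST, the peptide hormone somatostatin, was the best supported, at 29, 22.2 and 22.3 CPM in DMSO and 12.1, 14.2 and 13.2 CPM in Erastin (-0.90 ± 0.14, adjusted p = 0.0516). AGTR1, the angiotensin II receptor, was counted at 9.67, 9.38 and 9.43 CPM and 3.88, 5.51 and 5.47 CPM. Its log2 fold change was -0.94 ± 0.20 as counted and -0.82 ± 0.14 corrected (adjusted p = 0.77 and 0.101). GDF6, a bone morphogenetic protein, gave -0.81 ± 0.21, and TNR, an extracellular matrix protein of the nervous system, -0.74 ± 0.17. ERVMER34-1 (-0.94 ± 0.23), SNORD17 (-0.92 ± 0.26), SLC4A5 (-0.88 ± 0.29) and SCGN (-0.80 ± 0.27) completed the 12. Of the exon bases of SLC4A5 63.9% lie in other genes, MTHFD2 among them, and of SCGN 60.5%.

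None of the identity genes of the line was called. MYCN was counted at 5152, 5745 and 5096 CPM in DMSO and 6663, 4562 and 5146 CPM in Erastin, which overlapped. After correction it was at 7149, 5108 and 5375 CPM and 4854, 4980.0 and 4973 CPM, all Erastin libraries below all DMSO libraries, and its log2 fold change was 0.03 ± 0.16 as counted and -0.25 ± 0.13 corrected (adjusted p = 0.654). Of 22 tested adrenergic core transcription factors, 0 passed an unadjusted p of 0.05 upward and 1, INSM2, passed downward with the correction. INSM2 had -0.30 ± 0.11 corrected but -0.03 ± 0.16 as counted. The list median was -0.052 corrected and 0.12 as counted. HAND2 turned from 0.13 ± 0.15 as counted to -0.13 ± 0.11 corrected. TH, the first enzyme of catecholamine synthesis, shows the size of the GC trend. It was counted at 270.3, 588 and 405 CPM in DMSO and 866, 407 and 529 CPM in Erastin, and at 472, 494 and 448 CPM and 504, 474 and 479.9 CPM after correction, so a log2 fold change of 0.51 ± 0.35 became 0.04 ± 0.08. DBH, which makes noradrenaline, did not overlap between the groups, at 940.4, 1054 and 1033 CPM and 1365, 1368 and 1355 CPM after correction (0.43 ± 0.08, adjusted p = 0.156), and neither did DDC, which makes dopamine (0.47 ± 0.08, adjusted p = 0.115). Of 28 tested catecholamine and granule genes 4 passed an unadjusted p of 0.05 upward and 1 downward.

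Members of other lists are counted here at an unadjusted p of 0.05 with the correction. Of all genes tested, 3.25% passed this upward and 4.31% downward. No member of these lists was called. Of 23 MAPK output genes, 0 passed an unadjusted p of 0.05 upward and 3 downward, which were SPRY4 (-0.58 ± 0.11), ETV1 (-0.38 ± 0.08) and CCND1 (-0.36 ± 0.11), with adjusted p of 0.16, 0.258 and 0.539. Of 22 mesenchymal genes 1 passed upward and 4 downward, led by COL1A1, a collagen that also marks fibroblasts (-0.76 ± 0.15, adjusted p = 0.16). Of 35 neuronal projection genes 0 passed upward and 6 downward, among them GAP43 (-0.30 ± 0.09) and PLXNA4 (-0.41 ± 0.12). Of 18 hypoxia targets 6 passed upward and 0 downward, VEGFA and NDRG1 (0.64 ± 0.17) among them. Of 25 death receptor and BCL2 family genes 6 passed upward and 0 downward, including HRK (0.42 ± 0.10). Of 74 ribosomal protein genes 3 passed upward and 0 downward beside a median of 0.24, and the DMSO libraries themselves spread from -0.148 to 0.185 in that median. Among 13 genes of the mitochondrial genome MT-ATP8 had 2.08 ± 0.83 corrected and 1.66 ± 0.74 as counted, with 1 high library. It was counted at 77.2, 16 and 7.95 CPM in Erastin against 10, 11.4 and 10.5 CPM in DMSO.

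The response was compared with that of SK-N-AS by a term for treatment by cell line over all 12 samples. The dose was 1 µM in KELLY and 2 µM in SK-N-AS, so dose and line cannot be told apart. As counted, 1 of 18165 genes passed an adjusted p of 0.05 for this term (0.00551%), and with the GC correction within each line 20 of 15606 did (0.128%), 7 of them toward higher values in KELLY and 13 toward SK-N-AS. STC2 rose more in KELLY, by 2.48 ± 0.13 on the log2 scale against 0.58 ± 0.06 in SK-N-AS (adjusted p of the difference = 1.61e-05). ASS1 rose by 1.37 ± 0.12 in KELLY and stood at 0.03 ± 0.05 in SK-N-AS (adjusted p = 0.000621). CDKN1A was at 0.70 ± 0.09 and -0.14 ± 0.09 (adjusted p = 0.0309).

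Several ATF4 targets moved further in SK-N-AS. CHAC1 moved by 2.50 ± 0.15 log2 units in KELLY and by 4.61 ± 0.18 in SK-N-AS (adjusted p of the difference = 0.00391). PHGDH had 1.29 ± 0.14 and 3.76 ± 0.16 (adjusted p = 0.000621), and PSAT1 0.94 ± 0.08 and 2.02 ± 0.10 (adjusted p = 0.0103). ATF4 itself had 0.55 ± 0.09 and 1.53 ± 0.07 (adjusted p = 0.00391). GCLM and TXNRD1 were at 0.10 ± 0.09 and 0.06 ± 0.07 in KELLY and at 0.94 ± 0.07 and 0.60 ± 0.06 in SK-N-AS (adjusted p = 0.00781 and 0.0454). For SLC7A11 the term was 0.42 ± 0.14 (adjusted p = 0.412), with 2.43 ± 0.10 in KELLY and 2.01 ± 0.08 in SK-N-AS, and for SLC3A2 it was -0.25 ± 0.16 (adjusted p = 0.667). For ULBP1 it was -3.05 ± 0.70 (adjusted p = 0.182), with 1.51 ± 0.13 and 4.56 ± 0.75, and a p that misses the threshold does not show that the lines responded alike.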

How the data were processed

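The authors deposited a table of read counts per gene for each cell line, with 6 samples in each table and no normalization. Paired-end RNA-seq reads had been handled with Trimmomatic and HTSeq on GRCh38 with a GENCODE annotation, and DESeq2 is also named in the submitters' notes. The aligner and strand setting are not given in the sources used here. All columns belonged to the series (0 others).

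Counts were tested with edgeR 4.0.16 (R 4.3.3): filterByExpr, TMM scaling, glmQLFit and glmQLFTest on treatment over the 6 KELLY samples, with Benjamini-Hochberg adjustment over all genes tested. Of 58735 gene rows, 1568 repeat a name. For the GC correction, the log2 deviation of a library from the average over all 6 was fitted by loess (span 0.5, degree 2) on the GC content of the union of each gene's exons in GENCODE 44, and the curve was used as an offset. Gene names matched GENCODE 44 by symbol in 36230 cases and by an older symbol in 868, and 20069 did not match. Of the genes tested, 87.71% had a GC value, and the others are not in the corrected fit. CPM are counts scaled to a common total by TMM library size. List medians per library used log2(CPM + 0.5). The scripts were tested on simulated data.

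Named genes were the 12 largest rises and falls past the threshold of the study on both scales with no overlap and mean log2 CPM no lower than 1, every gene with an adjusted p under 0.05, the 3 members with the smallest corrected p and those past the threshold of the study in each of 48 gene lists, and a panel of stress response and identity genes. Members, lists and panel were chosen with earlier results of these data known. Sets were described by counts and medians, with no set test. Values of 2 list members are not reported here.

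Samples with the same replicate number did not deviate together (r = -0.801, -0.84 and -0.164 as counted, and -0.422, -0.529 and 0.0515 corrected), so the numbers were not used as pairs. Some samples with different numbers did. DMSO replicate 2 and Erastin replicate 1 had r = 0.85 as counted and 0.555 corrected, and DMSO replicate 1 and Erastin replicate 2 had 0.796 and 0.416. The main test does not model this shared pattern. Replicates of a group differed beyond counting error (chi-square per degree of freedom 14.6 to 116). Alternatives were DESeq2 1.42.0, limma-voom 3.58.1, other scalings, filters and GC curves, glmTreat, a replicate block and leaving out libraries.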

Additional observations from a re-analysis of the deposited data

Results flagged for a closer look

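The effect of Erastin differed between KELLY and SK-N-AS by the test of the treatment-by-line term itself in the following genes, given as the log2 fold change in KELLY minus that in SK-N-AS. The doses differed between the lines, so the part of dose cannot be told apart. As counted, STC2 passed (2.01). With the GC correction within each line, the term was positive for STC2 (1.91), ASS1 (1.34), IGFBP5 (1.12), STC1 (1.08), CDKN1A (0.843), DDC (0.681) and PLAU (3.33). PLAU had at most 6 counts in any KELLY library and was not tested in that line alone, so its value rests on few reads. IGFBP5 moved by 0.00081 ± 0.11 log2 units in KELLY and by -1.12 ± 0.11 in SK-N-AS, and STC1 by 0.29 ± 0.11 and -0.79 ± 0.08. The term was negative for PHGDH (-2.47), CHAC1 (-2.11), PSAT1 (-1.07), SLC1A4 (-1.04), ATF4 (-0.976), MTHFD2 (-0.892), GCLM (-0.842), SLC7A5 (-0.737), AARS (-0.73), PPM1E (-0.699), CEBPG (-0.606), DDR2 (-0.553) and TXNRD1 (-0.538). AARS, CEBPG, DDR2, IGFBP5, PLAU, PPM1E and STC1 were named after their values were seen.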

How the results depend on the processing

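None of the 28 genes called in KELLY with the GC correction changed sign in any alternative fit run with that correction. Values that missed the adjusted threshold could change sign with the GC correction (among them GPX4, GCLM, TFRC, HAND2, MYCN, HSPA5, E2F1 and NECTIN2). Of these, E2F1 and NECTIN2 passed an unadjusted p of 0.05 downward with the correction. As counted, the 330 genes past the threshold of the study became 980 without a filter on low counts, 203 among protein-coding genes, 99 with glmTreat and 114 with a replicate block, and 197 to 996 when 1 library was left out (996 without DMSO replicate 2, 633 without Erastin replicate 2, 218 without DMSO replicate 1 and 197 without Erastin replicate 1). The 1 gene with an adjusted p under 0.05 became 31 with DESeq2, 19 without a filter, 0 with the replicate block, 0 to 2 with 1 library left out and 23 without both replicate 1 libraries, an alternative chosen after seeing the data. With the GC correction, the 248 genes past the threshold of the study became 438 without a filter, 84 with glmTreat, 164 with the replicate block and 199 to 499 with 1 library left out (499 without DMSO replicate 2). The 28 genes with an adjusted p under 0.05 became 110 with DESeq2, 58 without a filter, 5 with the replicate block, 14 to 28 with 1 library left out (14 without Erastin replicate 3 and 16 without DMSO replicate 3) and 117 without both replicate 1 libraries. Of the 110 genes 76 were higher in Erastin, of the 58 genes 49, and of the 117 genes 91. Genes with a treatment-by-line term went from 1 to 20 with the GC correction, 0 with the replicate block and 1 to 3 with 1 library left out (3 without KELLY DMSO replicate 2), the last 2 settings run as counted only. The cause of these shifts was not tested. The curve absorbs any scaling of a library, so other size factors left the corrected counts as they were. Values of weakly counted genes rest on few reads, such as 3 to 17 counts a library for INHBA.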
